A study of Mus musculus with 16 samples.

Results

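The proteasome RNAs described here are those whose gene symbol starts with *Psm*, a letter from a to g and a number, with pseudogene symbols left out. The deposited table held 47 such RNAs among 12900 RNAs measured in NIH/3T3 cells, an immortalized mouse fibroblast line. They comprised 16 core subunits (*Psma1* to *Psma7*, *Psmb1* to *Psmb7*, *Psmb9* and *Psmb10*), 20 RNAs of the regulatory *Psmc* and *Psmd* series, 5 activators (*Psme1*, *Psme2*, *Psme2b*, *Psme3* and *Psme4*), 4 chaperones of core assembly (*Psmg1* to *Psmg4*), *Psmf1* and *Psmc3ip*. *Psmc3ip* has the symbol pattern but encodes a cofactor of meiotic recombination and not a proteasome subunit, so it was counted among the 47 and left out of the regulatory series. *Psma8*, *Psmb8* and *Psmb11* were not analysed here.

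The proteasome is the protease that degrades most ubiquitinated proteins of the cytosol and nucleus. Its barrel-shaped core is a stack of rings of α subunits, encoded by the *Psma* genes, and β subunits, encoded by the *Psmb* genes, with the cutting sites inside. A regulatory particle sits on the end of the barrel: its base holds a ring of ATPases (*Psmc*) that unfold the substrate, and its lid removes the ubiquitin chain. Since these subunits are built into the particle in fixed proportions, their RNAs are often compared as a set.

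All 16 samples came from lines that were transduced with a lentivirus, selected with geneticin and induced with doxycycline at 1 µg/ml for 3 days (72 h). The HBB line expressed the human β-globin coding sequence followed by its own 3′UTR, and the Pkp4 cUTR line expressed the same coding sequence followed by the 3′UTR of mouse *Pkp4*, an RNA that localizes to protrusions. Serum-starved cells were placed for 2 h on filters with 3 µm pores, LPA was added below the filter for 1 h, and protrusions (Ps) and cell bodies (CB) were scraped separately after fixation. Each line gave 4 Ps and 4 CB samples, and the comparisons asked which RNAs were enriched in protrusions and whether the overexpressed *Pkp4* 3′UTR changed that enrichment. Each Ps sample was pooled from 3 filters and each CB sample came from 1 filter. The study calls the replicates independent samples and the labels only number them. The sources name each line once and mention no separately made copies of a line.

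The samples held 18660287 to 31260831 reads over the 12900 RNAs, and 3 reads stood for 0.0890 to 0.176 read counts per 1000000 (CPM). The reads assigned to *Pkp4* were higher in the Pkp4 cUTR line than in the HBB line, by 4.44 on the log2 scale in CB and 3.32 in Ps. The construct carries the mouse *Pkp4* 3′UTR, so its reads and those of the cell's own *Pkp4* RNA cannot be told apart here. Of the 8 fibroblast markers 7 were measured, and their summed level was 25904 to 31485 CPM in the CB and 19249 to 22525 CPM in the Ps samples, every Ps below every CB sample, so this sum moved with the fractions compared below. *Col1a1*, *Col1a2*, *Col3a1*, *Fn1* and *Pdgfrb* fell by 1.26, 1.33, 1.39, 1.25 and 1.08 in log2(FC) of Ps over CB in the HBB line. *Vim* and *S100a4* rose there, by 0.55 and 0.52, so the markers did not move in 1 direction. The part of these markers in the results was not tested. Of 12 markers of other cell types 8 were measured, with a sum of 59.4 to 67.7 CPM in the CB and 75.6 to 87.4 CPM in the Ps of the HBB line and of 46.3 to 49.2 and 56.6 to 61.5 CPM in the Pkp4 cUTR line, higher in Ps in both. *Ptprc*, *Epcam*, *Krt5* and *Myod1* were not among the rows. Single markers differed between the lines in CB, in log2(FC) of the Pkp4 cUTR over the HBB line. *Gfap*, *Cdh5* and *Des* were at -3.46, -1.21 and -0.71, and *Adipoq* and *Cdh1* at 5.37 and 0.52. Reads per sample were 0 to 29 for *Adipoq*, 2 to 31 for *Cdh5* and 3 to 103 for *Gfap*. All 6 markers of localized protrusion RNAs were above 0 in log2(FC) in both lines, led by *Cyb5r3* at 3.14 in the HBB line. *Pkp4*, 1 of the 6, was at 0.42 in the Pkp4 cUTR line (limma, adjusted p = 0.073). The nuclear RNAs *Malat1* and *Neat1* fell by 1.85 and 1.48. No pair of replicates differed by less than the sampling noise.

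The reads of *Psme2* and *Psme2b* could have been split between them, since their transcripts were 99.4% identical over 794 aligned bases. Near-identical processed pseudogenes were found for *Psma3*, *Psma4*, *Psma5*, *Psmb3*, *Psmb5*, *Psmc1*, *Psmd2* and *Psmd11*, and stretches shared with a neighboring gene for *Psmb7*, *Psmb9*, *Psmc3ip*, *Psmd1*, *Psmd13* and *Psmg3*, so the values of these RNAs carry the same uncertainty. *Psmc6* and *Psme4*, which lead the results below, had no such copy among the annotated transcripts. Copies elsewhere in the genome were not searched for.

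The promoters of proteasome genes are known for antioxidant response elements, the sites through which Nfe2l1 and Nfe2l2 raise the whole set together. The core letters of that element, TGACNNNGC, were searched on both strands of the RefSeq promoters (250 bases before to 50 after each start, GRCm38.p6), which covered 40 of the 47 genes. They were present in 6 of the 40 genes (15%). The share was 17.1% of the 9065 measured genes with a promoter and 14% of all 27025 genes with a promoter. Windows are shown for the most protrusion-enriched pair, *Psmc6* and *Psme4*, and for the catalytic subunits *Psmb5* and *Psmb6*, with the matched letters in capitals and each window read on the strand of the motif. The first base is the matched base farthest upstream on the strand of the gene, counted from its start. In a window on the opposite strand this base is the last capital letter.

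Psmc6, chr14:45329589-45329613, opposite strand to the gene, first base at -227: gcaatgccTGACTTAGCtactggct
Psme4, chr11:30771760-30771784, opposite strand to the gene, first base at -7: tcttctggTGACGCTGCagccgcag
Psmb5, chr14:54618026-54618050, strand of the gene, first base at -47: tgaagttgTGACGTCGCggcgttgc
Psmb6, chr11:70525340-70525364, strand of the gene, first base at -9: aaagagagTGACGGAGCgctttacg

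The motif was no more frequent among the proteasome genes than among measured genes at large, and both RNAs with strong and RNAs with moderate protrusion enrichment carried it. A match describes letters in the window and no bound site. The other genes with a match were *Psmd9* and *Psmd12*.

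Levels between genes are given per length, as CPM per kilobase of the annotated transcript in the CB of the HBB line (mean ± SD, n = 4). The β ring was the most abundant class with a median of 184 CPM per kilobase, and *Psmb6* stood highest at 301 ± 18.1. The α ring ranged from 23.4 (*Psma3*, whose annotated transcript carries a 3′UTR of 1952 bases) to 211 (*Psma7*). The ring of ATPases was uneven at the level of RNA. *Psmc3* was at 132 ± 5.26, *Psmc5* at 108 ± 4.94, *Psmc4* at 83.4 ± 6.29, *Psmc1* at 55.8 ± 1.90 and *Psmc2* at 54.5 ± 1.74 CPM per kilobase, whereas *Psmc6* was at 3.80 ± 0.180. *Psmc1* and *Psmc2* did not differ beyond their spread, and *Psmc6* lay far below its partners in all 4 groups, reaching 11.8 ± 1.02 in the Ps of the Pkp4 cUTR line. The immunoproteasome subunit *Psmb9* was the lowest of all 47 at 3.23 ± 0.370, within the spread of *Psme4* at 3.28 ± 0.366, and *Psmb10* was at 22.6 ± 1.33. The assembly factors were low as a class, with medians of 12.7 for the base chaperones and 23.5 for the core chaperones.

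Protrusions of the HBB line were enriched in proteasome RNAs. Enrichment is given as log2(FC), the log2 ratio of Ps over CB, with its standard error from limma, and an RNA was called at a Benjamini-Hochberg adjusted p under 0.05 over all 12900 RNAs. In the HBB line 36 of the 47 proteasome RNAs were called higher in Ps and 0 lower, where 28.3% of all RNAs were called higher and 28.9% lower. In the Pkp4 cUTR line 33 were called higher and 0 lower, beside 28.2% and 28.5%. The 33 were all among the 36. At an unadjusted p under 0.1, 38 were higher and 0 lower in each line, beside 33.8% of all RNAs higher and 34.2% lower in the HBB line and 33.9% in either direction in the Pkp4 cUTR line. The median log2(FC) of the 47 was 0.34 in either line, beside 0.01 for all RNAs in both lines. The Ps samples lay above every CB sample for 32 members in the HBB line (25.5% of all RNAs did) and for 23 in the Pkp4 cUTR line (22.6%). No member had all Ps samples below all CB samples, whereas 26.8% and 22.2% of all RNAs did.

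These values are shares of the reads of a fraction, so a rise of proteasome RNAs and a fall of other RNAs in protrusions cannot be told apart. For the same reason they depend on the scaling. With libraries scaled to their total reads in place of the authors' scaling, the median of all RNAs moved to -0.23 in the HBB line and -0.25 in the Pkp4 cUTR line, 15 and 11 members were called higher, beside 15% and 13.9% of all RNAs. With that scaling *Psmd2*, *Psmd3* and *Psme3* were called lower in both lines. *Psmd1* was also called lower in the HBB line, as were *Psmd5* and *Psmd7* in the Pkp4 cUTR line, beside 43.5% and 45.5% of all RNAs called lower.

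The enrichment was modest for most members. Only *Psmc6* exceeded a 2-fold difference with an unadjusted p under 0.05 in the HBB line, where 4.54% of all RNAs did, and *Psmc6* and *Psme4* did so in the Pkp4 cUTR line, where 5.07% did. No member was over 2-fold lower, beside 4% and 2.92% of all RNAs. Called members of the HBB line other than *Psmc6* lay between 0.23 and 0.84 in log2(FC), which corresponds to 1.18-fold to 1.79-fold.

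**Figure D1:**
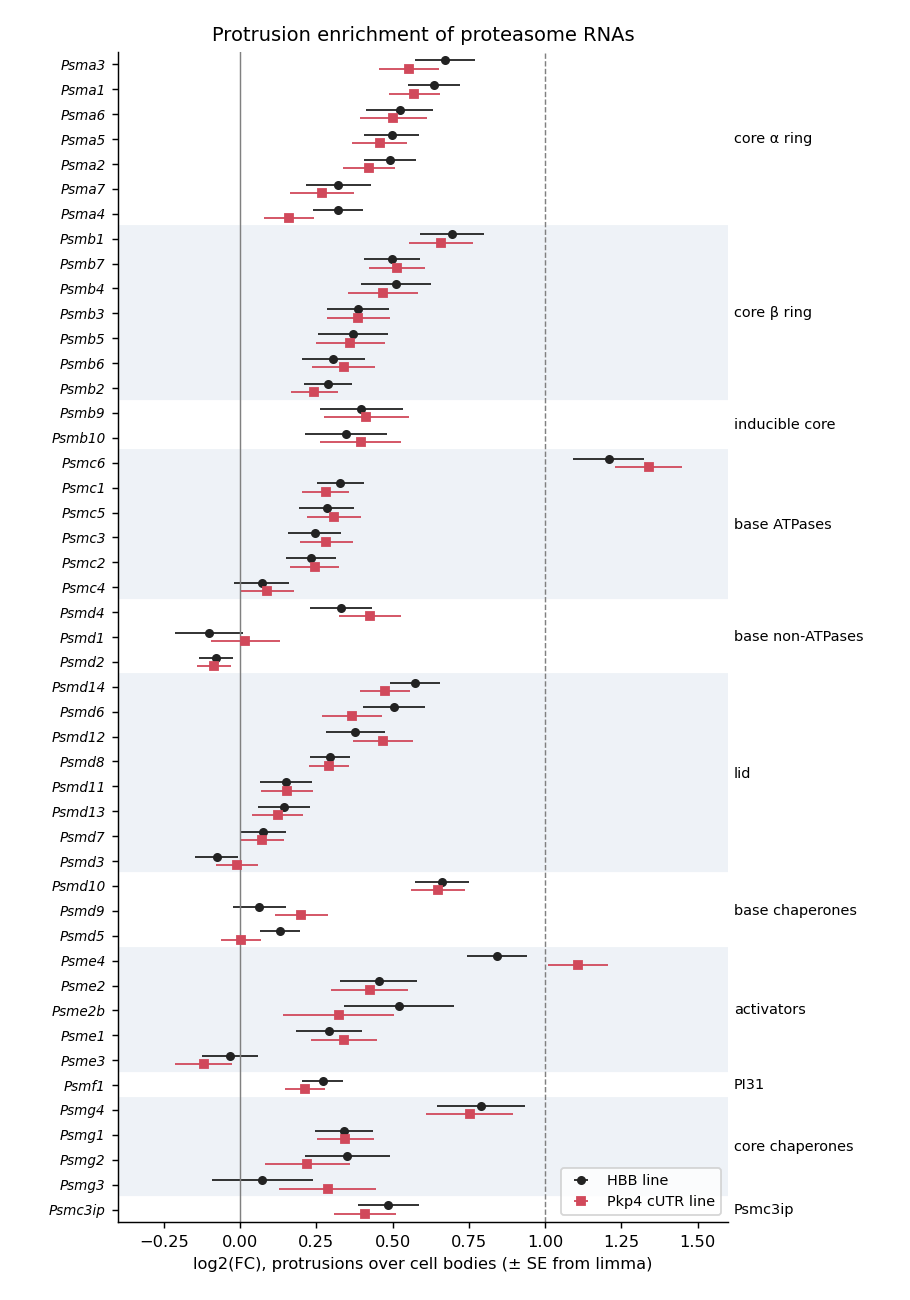
Protrusion enrichment of the 47 proteasome RNAs. The horizontal axis is log2(FC) of Ps over CB, points are estimates over 4 samples per group in the HBB line (black circles) and the Pkp4 cUTR line (red squares), and bars are ± 1 SE from limma. The dashed line marks a 2-fold difference. *Psmc6* stands apart at 1.21 and 1.34, and the base subunits *Psmd1* and *Psmd2* lie near 0. With total-read scaling the whole set moves left, by 0.23 and 0.25 for the median of all RNAs.

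*Psmc6* encodes an ATPase of the regulatory base. *Psmc6* was at 3.18, 3.09, 3.06 and 3.02 log2 CPM in the CB and 4.28, 4.59, 4.15 and 4.16 in the Ps of the HBB line (replicates 1 to 4), and at 3.43, 3.28, 3.17 and 3.67 in the CB and 4.65, 4.82, 4.84 and 4.59 in the Ps of the Pkp4 cUTR line. Every Ps sample lay above every CB sample of both lines. The log2(FC) was 1.21 ± 0.12 (SE, limma, adjusted p = 1.49e-07) in the HBB line and 1.34 ± 0.11 (SE, limma, adjusted p = 4.92e-08) in the Pkp4 cUTR line, or 2.31-fold and 2.53-fold. The other ATPases ranged from 0.07 (*Psmc4*, not called) to 0.33 (*Psmc1*) in the HBB line, so the least abundant ATPase RNA was the most enriched in protrusions. The gene lies at chr14:45329788-45349705 on the plus strand of GRCm38 and its annotated transcript has 14 exons and a 3′UTR of 1004 bases.

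*Psme4* encodes a large activator that caps the core without ATP. *Psme4* was at 4.56, 4.53, 4.28 and 4.26 log2 CPM in the CB and 5.14, 5.36, 5.19 and 5.33 in the Ps of the HBB line, and at 4.48, 4.36, 4.11 and 4.60 in the CB and 5.40, 5.60, 5.47 and 5.50 in the Ps of the Pkp4 cUTR line. Groups did not overlap in either line, and the Ps samples of the Pkp4 cUTR line were the highest of all. The log2(FC) was 0.84 ± 0.10 (SE, limma, adjusted p = 1.31e-06) in the HBB line and 1.11 ± 0.10 (SE, limma, adjusted p = 9.80e-08) in the Pkp4 cUTR line. The other activators were lower. *Psme1* and *Psme2*, which form a ring-shaped activator of peptide production, were at 0.29 and 0.45 in the HBB line and at 0.34 and 0.42 in the Pkp4 cUTR line, and both were called in both lines. The call of *Psme1* was lost in the HBB line without CB replicate 1, 2 or 3 or Ps replicate 1 or 3 of that line, and in the Pkp4 cUTR line without Ps replicate 3 of that line. *Psme2b*, the near-identical copy of *Psme2*, was called in the HBB line alone, at 0.52, a call lost without CB replicate 3 or Ps replicate 3 of that line, and it was at 0.32 in the Pkp4 cUTR line. *Psme3*, a nuclear relative of these, was not called, at -0.03 and -0.12.

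**Figure D2:**
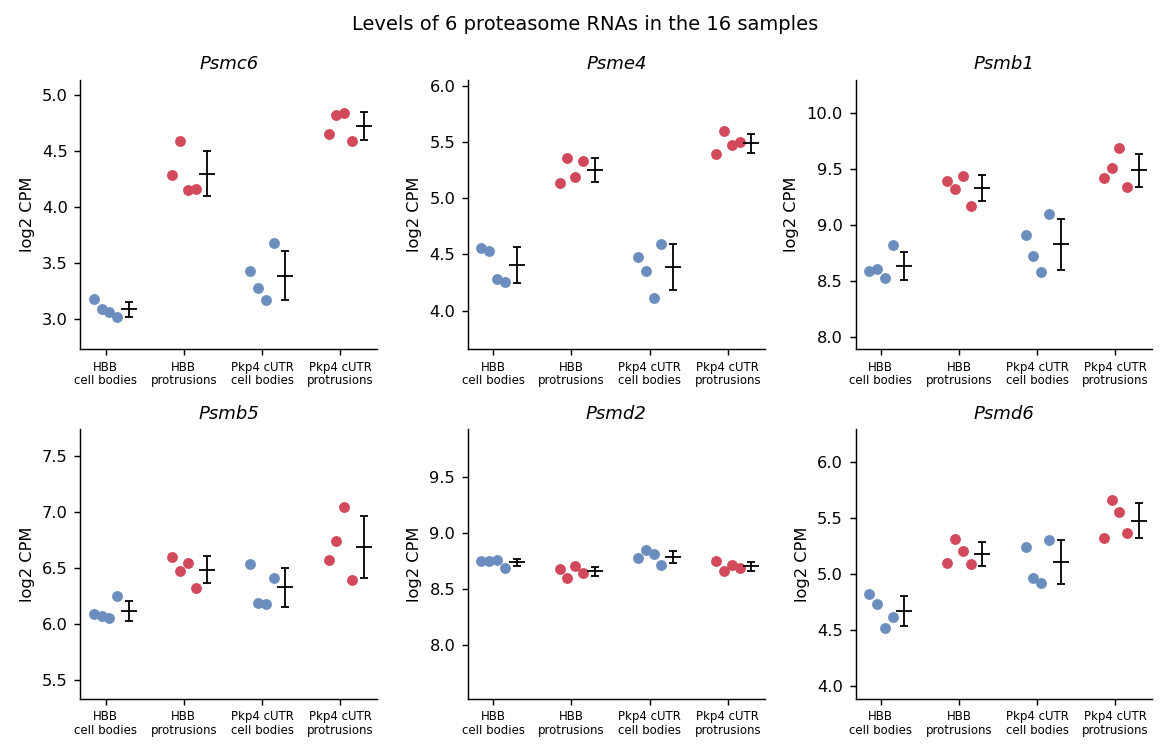
Levels of 6 proteasome RNAs in the 16 samples. Each point is a sample in log2 CPM, blue for CB and red for Ps, grouped by line, and the bars show the mean ± SD of 4 samples. All panels span the same log2 range. *Psmc6* and *Psme4* show the widest gaps between Ps and CB, and *Psmd2*, at -0.08 in both lines and not called, shows CB and Ps samples that overlap.

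Assembly factors split between strongly and weakly enriched RNAs. *Psmg4* and *Psmg3* encode partner proteins that help build the α ring. *Psmg4* was at 3.97, 3.82, 4.20 and 4.46 log2 CPM in the CB and 4.84, 4.74, 5.15 and 4.85 in the Ps of the HBB line, and at 4.31, 3.94, 3.97 and 4.51 in the CB and 4.79, 4.83, 5.22 and 4.88 in the Ps of the Pkp4 cUTR line. Its groups did not overlap in either line, and the log2(FC) was 0.79 ± 0.14 (SE, limma, adjusted p = 0.000142) and 0.75 ± 0.14 (SE, limma, adjusted p = 0.000251) in the HBB and Pkp4 cUTR lines. *Psmg3* was not called in either line, at 0.07 and 0.29, and was called in the Pkp4 cUTR line without CB replicate 4 or Ps replicate 1 of that line. *Psmg1* was called at 0.34 in both lines. *Psmg2* was at 3.93, 3.97, 3.82 and 4.34 log2 CPM in the CB and 4.27, 4.47, 4.35 and 4.34 in the Ps of the HBB line, and at 4.25, 3.91, 3.89 and 4.50 in the CB and 4.07, 4.44, 4.63 and 4.29 in the Ps of the Pkp4 cUTR line. *Psmg2*, the partner of *Psmg1*, overlapped between Ps and CB in both lines. Its log2(FC) was 0.35 ± 0.14 (SE, limma, adjusted p = 0.038) in the HBB line, a call lost without any 1 of the CB replicates 1, 2 or 3 or the Ps replicates 2, 3 or 4 of that line, and 0.22 ± 0.14 (SE, limma, adjusted p = 0.19) in the Pkp4 cUTR line, where it was called without CB replicate 4 of that line.

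*Psmd10* encodes gankyrin, one of 3 chaperones of base assembly in the set. *Psmd10* was at 4.37, 4.31, 4.30 and 4.21 log2 CPM in the CB and 4.99, 4.98, 4.99 and 4.90 in the Ps of the HBB line, and at 4.37, 4.34, 4.08 and 4.53 in the CB and 4.93, 4.99, 5.15 and 4.82 in the Ps of the Pkp4 cUTR line. The CB samples lay between 4.08 and 4.53 and the Ps samples between 4.82 and 5.15. The log2(FC) was 0.66 ± 0.09 (SE, limma, adjusted p = 6.05e-06) and 0.65 ± 0.09 (SE, limma, adjusted p = 9.40e-06) in the HBB and Pkp4 cUTR lines. The other base chaperones, *Psmd5* and *Psmd9*, were not called in either line, at 0.13 and 0.06 in the HBB line and 0.00 and 0.20 in the Pkp4 cUTR line. *Psmd9* was close to a call in the Pkp4 cUTR line (limma, adjusted p = 0.055). It was called there with a replicate block shared by the lines, quantile normalization or either filter on level. The same held without CB replicate 4 of the HBB line, CB replicate 1 or 4 or Ps replicate 1 of the Pkp4 cUTR line, or CB replicate 4 of both lines. *Psmd5* was called in the HBB line with quantile normalization.

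Every core subunit was called in the HBB line and 15 of 16 in the Pkp4 cUTR line, the exception being *Psma4*. The call of *Psma7* in the Pkp4 cUTR line (0.27, limma, adjusted p = 0.037) was lost without CB replicate 2 or 3 or Ps replicate 2 or 3 of that line, and without Ps replicate 3 its value was 0.16. The α ring ranged from 0.32 to 0.67 with a median of 0.50 in the HBB line, and the β ring from 0.29 to 0.69 with a median of 0.39. In the Pkp4 cUTR line the medians were 0.46 and 0.39. With total-read scaling all 16 core subunits stayed above 0 in the HBB line and 14 in the Pkp4 cUTR line, and 8 and 6 of them were called.

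The highest of the core were *Psmb1* and *Psma3*, structural members of the β and α rings. *Psmb1* was at 8.59, 8.61, 8.52 and 8.82 log2 CPM in the CB and 9.40, 9.32, 9.44 and 9.17 in the Ps of the HBB line, and at 8.91, 8.72, 8.58 and 9.10 in the CB and 9.42, 9.51, 9.68 and 9.34 in the Ps of the Pkp4 cUTR line. *Psma3* was at 6.06, 6.13, 5.98 and 6.06 log2 CPM in the CB and 6.79, 6.76, 6.79 and 6.57 in the Ps of the HBB line, and at 6.34, 6.16, 5.99 and 6.38 in the CB and 6.65, 6.91, 6.98 and 6.54 in the Ps of the Pkp4 cUTR line. Neither overlapped between Ps and CB in a line. The log2(FC) of *Psmb1* was 0.69 ± 0.10 (SE, limma, adjusted p = 2.07e-05) in the HBB line and 0.66 ± 0.10 (SE, limma, adjusted p = 4.24e-05) in the Pkp4 cUTR line. For *Psma3* it was 0.67 ± 0.10 (SE, limma, adjusted p = 1.64e-05) and 0.55 ± 0.10 (SE, limma, adjusted p = 0.00013), and part of its reads may belong to a pseudogene copy.

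By the mean log2(FC) of the lines, the lowest core subunits were *Psma4* of the α ring and *Psmb2* of the β ring. *Psma4* was at 5.74, 5.72, 5.61 and 5.61 log2 CPM in the CB and 6.0, 6.07, 6.0 and 5.90 in the Ps of the HBB line, and at 5.99, 5.79, 5.62 and 5.99 in the CB and 5.99, 6.13, 6.01 and 5.90 in the Ps of the Pkp4 cUTR line. *Psmb2* was at 7.19, 7.19, 7.23 and 7.19 log2 CPM in the CB and 7.59, 7.41, 7.63 and 7.33 in the Ps of the HBB line, and at 7.22, 7.19, 7.10 and 7.19 in the CB and 7.53, 7.35, 7.56 and 7.24 in the Ps of the Pkp4 cUTR line. *Psma4* overlapped between Ps and CB in the Pkp4 cUTR line, and *Psmb2* did not overlap in either line. The log2(FC) of *Psma4* was 0.32 ± 0.08 (SE, limma, adjusted p = 0.0029) in the HBB line and 0.16 ± 0.08 (SE, limma, adjusted p = 0.1) in the Pkp4 cUTR line, where it ranged from 0.08 (without CB replicate 3) to 0.21 with single samples left out and was called without CB replicate 1 or 4 of that line. *Psmb2* was at 0.29 ± 0.08 (SE, limma, adjusted p = 0.0043) and 0.24 ± 0.08 (SE, limma, adjusted p = 0.013). With total-read scaling both turned below 0 in the Pkp4 cUTR line, at -0.10 and -0.02.

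The catalytic subunits showed the same moderate enrichment. *Psmb5* carries the chymotrypsin-like, *Psmb6* the caspase-like and *Psmb7* the trypsin-like site. *Psmb5* was at 6.09, 6.07, 6.05 and 6.25 log2 CPM in the CB and 6.60, 6.48, 6.54 and 6.32 in the Ps of the HBB line, and at 6.54, 6.19, 6.18 and 6.41 in the CB and 6.57, 6.74, 7.05 and 6.40 in the Ps of the Pkp4 cUTR line. *Psmb6* was at 7.87, 7.82, 7.92 and 8.02 log2 CPM in the CB and 8.29, 8.10, 8.30 and 8.16 in the Ps of the HBB line, and at 8.12, 7.88, 7.86 and 8.16 in the CB and 8.21, 8.36, 8.69 and 8.12 in the Ps of the Pkp4 cUTR line. *Psmb7* was at 6.78, 6.76, 6.78 and 6.92 log2 CPM in the CB and 7.29, 7.26, 7.42 and 7.27 in the Ps of the HBB line, and at 6.93, 6.76, 6.68 and 7.08 in the CB and 7.27, 7.40, 7.62 and 7.21 in the Ps of the Pkp4 cUTR line. *Psmb7* did not overlap between Ps and CB in a line, and *Psmb5* and *Psmb6* overlapped in the Pkp4 cUTR line. *Psmb7* had a log2(FC) of 0.50 ± 0.09 (SE, limma, adjusted p = 0.000158) and 0.51 ± 0.09 (SE, limma, adjusted p = 0.00013) in the HBB and Pkp4 cUTR lines. *Psmb5* was at 0.37 ± 0.11 (SE, limma, adjusted p = 0.01) and 0.36 ± 0.11 (SE, limma, adjusted p = 0.012), and its call in the Pkp4 cUTR line was lost without Ps replicate 3 of that line. *Psmb6* was at 0.31 ± 0.10 (SE, limma, adjusted p = 0.018) and 0.34 ± 0.10 (SE, limma, adjusted p = 0.0098), and its call in the HBB line was lost without CB replicate 2, Ps replicate 1 or Ps replicate 3 of that line.

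*Psmb9* and *Psmb10* are the interferon-inducible counterparts of *Psmb6* and *Psmb7*. *Psmb9* was at 2.32, 2.09, 1.92 and 2.17 log2 CPM in the CB and 2.72, 2.66, 2.62 and 2.07 in the Ps of the HBB line, and at 2.22, 2.08, 1.98 and 2.12 in the CB and 2.57, 2.68, 2.37 and 2.44 in the Ps of the Pkp4 cUTR line. *Psmb10* was at 4.85, 4.81, 4.88 and 5.00 log2 CPM in the CB and 5.35, 5.05, 5.34 and 5.19 in the Ps of the HBB line, and at 5.10, 4.94, 4.90 and 5.36 in the CB and 5.23, 5.44, 5.96 and 5.26 in the Ps of the Pkp4 cUTR line. *Psmb9* rested on 87 to 154 reads per sample, and its Ps replicate 4 of the HBB line lay among the CB samples. The log2(FC) was 0.40 ± 0.14 (SE, limma, adjusted p = 0.019) and 0.41 ± 0.14 (SE, limma, adjusted p = 0.018) for *Psmb9*, and 0.35 ± 0.13 (SE, limma, adjusted p = 0.034) and 0.40 ± 0.13 (SE, limma, adjusted p = 0.017) for *Psmb10* in the HBB and Pkp4 cUTR lines. Both calls were fragile. For *Psmb9* the HBB call was lost without CB replicate 3 or Ps replicate 1, 2 or 3 of that line, and the Pkp4 call without CB replicate 3 or Ps replicate 2 of its line. For *Psmb10* the HBB call was lost without CB replicate 1, 2 or 3 or Ps replicate 1 or 3, and the Pkp4 call without CB replicate 2 or 3 or Ps replicate 3. *Tap1*, the neighbor that shares 212 bases of annotated transcript with *Psmb9* and encodes a peptide transporter, fell by 0.96 in the HBB line, as did its partner *Tap2* by 0.95. Other RNAs of the interferon response moved in both directions in that line. *Isg15*, *Bst2* and *B2m* were called higher, at 0.70, 0.47 and 0.20, and *Irf1*, *Tapbp* and *H2-K1* lower, at -0.80, -0.75 and -0.74.

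The regulatory series was less uniform. Of its 20 RNAs 11 were called higher in each line and 0 lower, with medians of 0.24 and 0.26. Within it 5 of 6 ATPases, 1 of 3 base subunits without ATPase activity, 4 of 8 lid subunits and 1 of 3 base chaperones were called in each line. In the lid, *Psmd14*, the deubiquitinase that cuts off the ubiquitin chain, was at 0.57 and 0.47, *Psmd6* at 0.50 and 0.37, *Psmd12* at 0.38 and 0.47 and *Psmd8* at 0.29 in both lines. The lid subunits *Psmd3*, *Psmd7*, *Psmd11* and *Psmd13* were not called in either line, between -0.08 and 0.15. *Psmd11* was called higher in both lines with quantile normalization, and in the Pkp4 cUTR line without Ps replicate 3 of that line. *Psmd13* was called higher in the HBB line without CB replicate 4 of both lines together.

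*Psmd1* and *Psmd2* were not called in either line. They encode the largest subunits of the base, and *Psmd4* the ubiquitin receptor beside them. *Psmd2* was at 8.74, 8.75, 8.75 and 8.69 log2 CPM in the CB and 8.67, 8.60, 8.70 and 8.64 in the Ps of the HBB line, and at 8.77, 8.84, 8.81 and 8.71 in the CB and 8.75, 8.66, 8.71 and 8.69 in the Ps of the Pkp4 cUTR line. The CB and Ps samples of *Psmd2* overlapped in both lines, and its log2(FC) was -0.08 ± 0.06 (SE, limma, adjusted p = 0.23) and -0.08 ± 0.06 (SE, limma, adjusted p = 0.2). *Psmd1* was at -0.10 ± 0.11 (SE) and 0.02 ± 0.11, and without CB replicate 4 of the HBB line it was called lower there, at -0.23 (limma, adjusted p = 0.035). *Psmd4* was called in both lines, at 0.33 and 0.43.

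The least enriched members that were called included the ATPases *Psmc2* and *Psmc3* and the proteasome-binding protein *Psmf1*. *Psmc2* was at 6.62, 6.63, 6.53 and 6.63 log2 CPM in the CB and 6.84, 6.92, 6.77 and 6.82 in the Ps of the HBB line, and at 6.83, 6.64, 6.48 and 6.86 in the CB and 6.85, 7.02, 7.08 and 6.83 in the Ps of the Pkp4 cUTR line. *Psmc3* was at 7.73, 7.69, 7.78 and 7.83 log2 CPM in the CB and 8.03, 7.92, 8.09 and 7.96 in the Ps of the HBB line, and at 7.97, 7.79, 7.81 and 8.04 in the CB and 8.03, 8.21, 8.46 and 8.04 in the Ps of the Pkp4 cUTR line. *Psmf1* was at 5.94, 5.98, 5.95 and 6.03 log2 CPM in the CB and 6.33, 6.17, 6.35 and 6.13 in the Ps of the HBB line, and at 6.17, 6.24, 6.15 and 6.11 in the CB and 6.49, 6.26, 6.37 and 6.38 in the Ps of the Pkp4 cUTR line. In the HBB line none of the 3 overlapped between Ps and CB, and in the Pkp4 cUTR line *Psmc2* and *Psmc3* did. *Psmc2* was at 0.23 ± 0.08 (SE, limma, adjusted p = 0.02) and 0.24 ± 0.08 (SE, limma, adjusted p = 0.016) in the HBB and Pkp4 cUTR lines. Its call was lost without CB replicate 3 or Ps replicate 2 of the HBB line, and without CB replicate 3 or Ps replicate 3 of the Pkp4 cUTR line. *Psmc3* was at 0.24 ± 0.09 (SE, limma, adjusted p = 0.023) and 0.28 ± 0.09 (SE, limma, adjusted p = 0.01), and its HBB call was lost without CB replicate 2 or Ps replicate 1 or 3. *Psmf1* was at 0.27 ± 0.07 (SE, limma, adjusted p = 0.0022) and 0.21 ± 0.07 (SE, limma, adjusted p = 0.012). With total-read scaling *Psmc2* lay below 0 in both lines and *Psmf1* in the Pkp4 cUTR line.

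Core subunits were thus more enriched than the regulatory series, by 0.21 between the medians of log2(FC) in the HBB line and 0.16 in the Pkp4 cUTR line. No test is attached to this difference, which is a description of chosen members. The classes are not alike in make-up: the regulatory series includes the base chaperones *Psmd5*, *Psmd9* and *Psmd10*, whereas the core leaves out its chaperones *Psmg1* to *Psmg4*. With total-read scaling the core medians were 0.21 and 0.15 and the regulatory medians 0.00 and -0.00, the last below 0, and relative to the median of all RNAs each class kept its distance (0.44 and 0.41 for the core, 0.23 and 0.25 for the regulatory series). Per sample, the class value is the median over its RNAs of log2 CPM centred on each RNA's mean over the 16 samples. The core was at -0.31, -0.33, -0.36 and -0.16 in the CB and 0.20, 0.17, 0.26 and 0.05 in the Ps of the HBB line, and at -0.09, -0.23, -0.34 and 0.02 and 0.19, 0.29, 0.54 and 0.09 in the Pkp4 cUTR line. The regulatory series was at -0.17, -0.19, -0.15 and -0.16 and 0.07, 0.04, 0.10 and 0.02 in the HBB line, and at 0.01, -0.14, -0.17 and 0.02 and 0.09, 0.18, 0.30 and 0.06 in the Pkp4 cUTR line. Ps and CB did not overlap for either class in a line. CB replicate 4 was the highest CB sample of the core in both lines, and Ps replicate 3 of the Pkp4 cUTR line was the highest sample of both classes. Without CB replicate 4 of both lines together, 37 members were called higher in each line, the core medians were 0.47 and 0.49 and the regulatory medians 0.25 and 0.30.

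**Figure D3:**
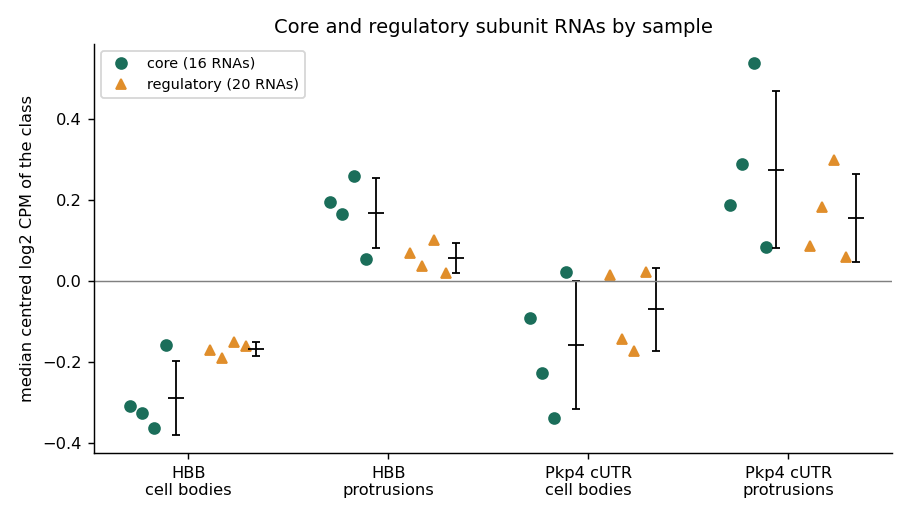
RNAs of the core and of the regulatory series by sample. The regulatory series includes the base chaperones *Psmd5*, *Psmd9* and *Psmd10*, and the core leaves out its chaperones *Psmg1* to *Psmg4*. The vertical axis is the median over the 16 core (green circles) or 20 regulatory RNAs (orange triangles) of log2 CPM centred on each RNA's mean over all samples, and bars show the mean ± SD of 4 samples per group. Core values run from -0.36 to 0.54 and regulatory values from -0.19 to 0.30, with every Ps sample above every CB sample of its line. Total-read scaling lowers all Ps relative to CB, and the regulatory difference is then near 0.

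Transcript length moved with this difference. The annotated transcripts of the core had a median length of 1174 bases and those of the regulatory series 1710.5 bases. Across 10957 protein-coding RNAs in 15 bins of length, the median log2(FC) in the HBB line was 0.54 in the shortest bin (median 801 bases), 0.29 at 1219.5 bases, 0.13 at 1542.5 bases and 0.02 at 1825 bases, and from 2099.5 bases on it lay between -0.18 and -0.04. With the median of its own length bin subtracted from each member, the core was at 0.17 in the HBB line and 0.18 in the Pkp4 cUTR line, and the regulatory series at 0.17 and 0.18. The difference between the classes was then -0.01 and 0.01. The members above the median of their bin were 11 and 10 of the 16 core RNAs and 17 and 18 of the 20 regulatory RNAs in the HBB and Pkp4 cUTR lines. With bins of coding length the core was at 0.31 in both lines, the regulatory series at 0.32 and 0.33, and the difference at -0.01 and -0.02. No test is attached to these values. The part that length has in the enrichment was not tested further.

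Core subunits in the shortest length bin fell below its median in the HBB line. Of the other members in that bin, *Psmg4* was at 0.24 relative to its median, and *Psme2*, *Psme2b* and *Psmg3* at -0.10, -0.03 and -0.48. *Psma7*, *Psmb2*, *Psmb3*, *Psmb5* and *Psmb6*, all in the shortest bin, were at -0.26 to -0.16 relative to its median in the HBB line. *Psmc6* with 2234 bases and *Psme4* with 6491 bases were above their bins by 1.25 and 1.02 in that line, and *Psma3*, *Psmb1* and *Psma2* by 0.81, 0.68 and 0.63. The annotated transcripts taken for *Psma3*, *Psmb1* and *Psma2* carry 3′UTRs of 1952, 999 and 2171 bases. Which transcripts the cells made was not measured, so the bins and correlations with length depend on the transcript taken. Among the 16 core RNAs, log2(FC) and log2 length had r = 0.63 and rho = 0.58 in the HBB line, whereas the 20 regulatory RNAs had r = -0.34 and rho = -0.55, all 47 members r = -0.15 and rho = -0.27, and the 10957 protein-coding RNAs r = -0.26 and rho = -0.26. These are descriptions across RNAs, which share the same samples.

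**Figure D4:**
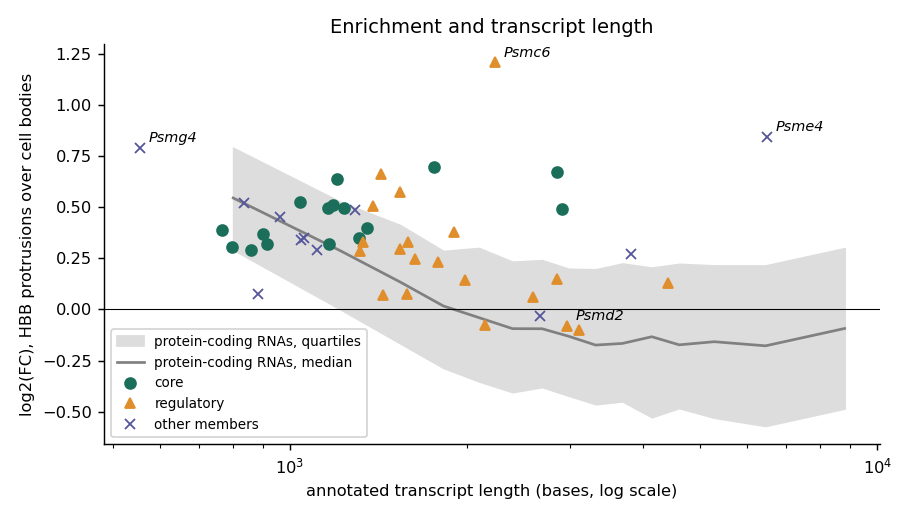
Enrichment and transcript length. The horizontal axis is the length of the annotated transcript in bases on a log scale, and the vertical axis is log2(FC) of Ps over CB in the HBB line. The gray line and band are the median and quartiles of the protein-coding RNAs in 15 bins of length, and symbols are core, regulatory and other proteasome RNAs. The median falls from 0.54 at 801 bases to values below 0 from 2099.5 bases on, and *Psmc6* and *Psme4* lie above the band. Total-read scaling lowers the median of all RNAs by 0.23.

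The members ranked in a similar order in both lines. Across the 47 members the log2(FC) values of the HBB and Pkp4 cUTR lines, which share no samples, had r = 0.94 and rho = 0.93, and they differed by a median of 0.05 and at most 0.27. The change of enrichment between the lines is the difference between these log2(FC) values, tested in limma. Without separately made copies of a line, an effect of the *Pkp4* 3′UTR cannot be told apart from other differences between the lines. At an unadjusted p under 0.1 *Psme4* was the single member called, with a larger enrichment in the Pkp4 cUTR line by 0.27 ± 0.14 (SE, unadjusted p = 0.072), beside 3.44% of all RNAs up and 2.36% down (5.8% in either direction). At an adjusted p under 0.05, 0 members and 0% of all RNAs were called in limma, and 300 of all RNAs and 0 members had an unadjusted p under 0.05. The SE of this difference ranged from 0.08 to 0.25 over the members, so a moderate change of a single RNA was not detectable with these samples. The *Psme4* call was lost with total-read scaling and without any 1 of 7 samples, namely CB replicates 1 and 2 and Ps replicates 1 and 3 of the HBB line and CB replicates 2 and 3 and Ps replicate 2 of the Pkp4 cUTR line, where its value ranged from 0.17 to 0.26. Leaving out other samples brought in *Psmd1* (0.24, without CB replicate 4 of the HBB line), *Psmg3* (0.35, without CB replicate 4 of the Pkp4 cUTR line), and *Psma4* and *Psmd5* (-0.24 and -0.17, without CB replicate 3 of the Pkp4 cUTR line).

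Between the lines, few single proteasome RNAs were called within a fraction, and most lay slightly higher in the Pkp4 cUTR line. Above 0 in log2(FC) of the Pkp4 cUTR over the HBB line were 39 of 47 members in CB and 39 in Ps, beside 50.6% and 52.7% of all RNAs, with medians of 0.11 and 0.09. Between samples of the same replicate number, the core value of the Pkp4 cUTR line minus that of the HBB line was 0.22, 0.10, 0.02 and 0.18 in CB and -0.01, 0.12, 0.28 and 0.03 in Ps (replicates 1 to 4). For the regulatory series it was 0.19, 0.05, -0.02 and 0.18 in CB and 0.02, 0.15, 0.20 and 0.04 in Ps. The core and regulatory values of a replicate number come from the same samples, so they are not separate replicates. In CB *Psmd6* was the single member called, where 3.42% of all RNAs were called higher, and in Ps *Psmc6* was, where 2.89% were. At an unadjusted p under 0.05, 7 of 47 members differed in CB and 8 in Ps, beside 22.9% and 22.0% of all RNAs. All Pkp4 cUTR samples lay above all HBB samples for 3 members in CB (6.49% of all RNAs) and 4 in Ps (6.31%), and below them for 0 members in either, beside 8.11% and 7.4%. *Psmd6* was at 4.82, 4.73, 4.52 and 4.61 log2 CPM in the CB and 5.10, 5.31, 5.21 and 5.09 in the Ps of the HBB line, and at 5.24, 4.96, 4.92 and 5.31 in the CB and 5.32, 5.66, 5.55 and 5.37 in the Ps of the Pkp4 cUTR line. *Psmd6*, a lid subunit, was higher in every CB sample of the Pkp4 cUTR line than in any of the HBB line, by 0.43 ± 0.10 (SE, limma, adjusted p = 0.010). In Ps its samples did not overlap between the lines either, but the difference of 0.30 was not called (limma, adjusted p = 0.088). Its own protrusion enrichment was 0.50 ± 0.10 (SE, limma, adjusted p = 0.000387) in the HBB line and 0.37 ± 0.10 (SE, limma, adjusted p = 0.0044) in the Pkp4 cUTR line. The call in CB was lost without CB replicate 4 of both lines together, at 0.35 (limma, adjusted p = 0.061). *Psmc6* was higher in the Ps of the Pkp4 cUTR line by 0.42 ± 0.11 (SE, limma, adjusted p = 0.019), and the highest HBB sample and the lowest Pkp4 cUTR sample were both at 4.59. That call was lost with total-read scaling and without Ps replicate 1, 3 or 4 of the HBB line or Ps replicate 2 or 3 of the Pkp4 cUTR line. Other members came in without 1 sample. *Psmg1* did so in CB without CB replicate 4 of the HBB line, and in CB without Ps replicate 3 of the Pkp4 cUTR line. *Psma1*, *Psma4*, *Psmc1* and *Psmg1* did so in CB without CB replicate 3 of the Pkp4 cUTR line. *Psme3* was called lower in Ps, at -0.32, without Ps replicate 1 of that line.

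**Figure D5:**
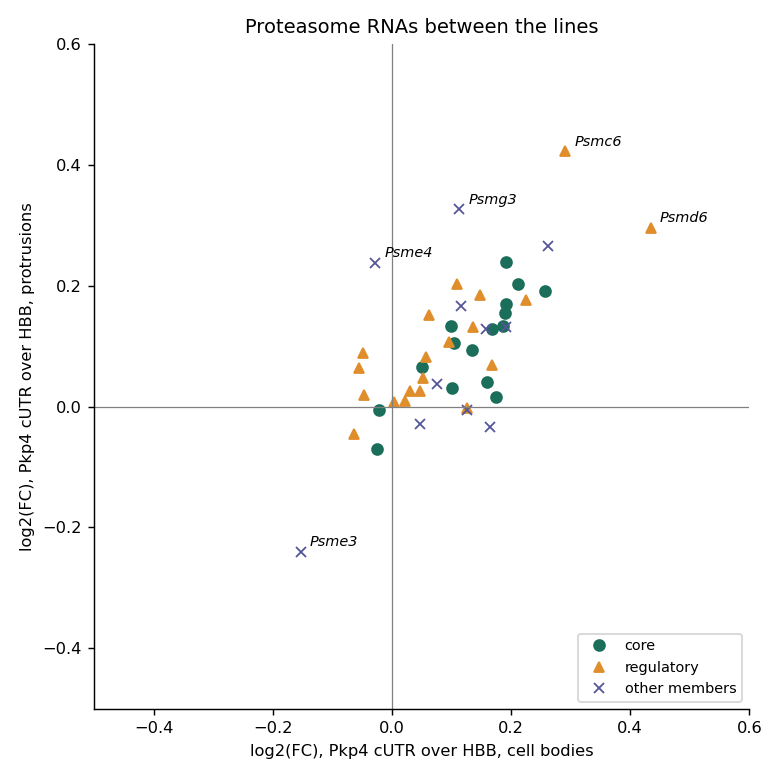
Proteasome RNAs between the lines. The axes are log2(FC) of the Pkp4 cUTR over the HBB line in CB (horizontal) and in Ps (vertical), and each symbol is a core, regulatory or other proteasome RNA. Most members lie within 0.3 of 0 on both axes, *Psmd6* is farthest to the right at 0.43 and *Psmc6* is highest at 0.42. Under total-read scaling 38 members stay above 0 in CB and 31 in Ps.

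Partners of the proteasome from a list of 25 genes, of which 21 were measured, moved in both directions. In the HBB line 8 were called higher and 2 lower, where 28.3% and 28.9% of all RNAs were. In the Pkp4 cUTR line 7 were called higher and 3 lower, beside 28.2% and 28.5%. The small subunit *Shfm1* of the lid was at 0.82 and 0.78, the core maturation protein *Pomp* at 0.70 and 0.65, and the proteasome-bound deubiquitinases *Usp14* and *Uchl5* at 0.64 and 0.61 in the HBB line. The Ecm29 adaptor, listed as *AI314180*, was at 0.42 and 0.73. *Fbxo7*, which binds *Psmf1* protein, fell by 0.21 and 0.26. The base subunit *Adrm1*, which has no *Psm* symbol, was called lower in the HBB line, at -0.18 (limma, adjusted p = 0.0496). In the Pkp4 cUTR line *Adrm1* was at -0.11 and not called. The absence of lower calls in the main fit is therefore stated for the RNAs with a *Psm* symbol only. The lower call of *Adrm1* was borderline and in the HBB line alone, and its dependence on single samples or scaling is not given here. *Nfe2l1*, the transcription factor that raises proteasome genes when proteasome activity is low, was at -0.13 (not called) in the HBB line and at -0.32 (limma, adjusted p = 0.0098) in the Pkp4 cUTR line, and in Ps it was lower in the Pkp4 cUTR than in the HBB line by 0.39 (limma, adjusted p = 0.019).

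The lid has structural relatives in the COP9 signalosome, which removes Nedd8 from cullins, and in the translation initiation factor eIF3. Of 9 COP9 RNAs 5 were called higher and 1 lower in each line, with medians of 0.53 and 0.45. Of 14 eIF3 RNAs 11 were higher and 1 lower in the HBB line, with a median of 0.66, and 12 higher and 1 lower in the Pkp4 cUTR line, with a median of 0.68. Of all RNAs 28.3% and 28.2% were called higher and 28.9% and 28.5% lower in the HBB and Pkp4 cUTR lines. The 8 lid RNAs with a *Psmd* symbol, *Shfm1* not included, had medians of 0.22 in both lines. *Cops2*, the COP9 subunit most like a lid subunit of the *Psmd11* kind, was at 1.43 and 1.96, and *Eif3a*, *Eif3e* and *Eif3m* were at 1.43, 1.39 and 1.17 in the HBB line, above every lid RNA of the proteasome, *Shfm1* included. These differences between sets were not tested.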

How the data were processed

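RNA of protrusions and cell bodies of NIH/3T3 cells was sequenced in 16 samples, 4 per group, and groups were taken from the sample titles. The authors mapped their paired reads with STAR (2.4.2a, run in 2 passes) to the mm10 genome and a GENCODE annotation, used Rsubread for counts of each gene, applied the voom transformation of limma (version 3.26.1 in the submitters' processing notes) and deposited log2 CPM values, that is log2 of the reads plus 0.5 over the scaled library size plus 1, times 1000000. The method of the scaling factors, which were 0.83 to 1.11 and below 1 in all Ps samples, and the strand setting of the counting are not given in the sources used here. The table holds no columns of the authors' comparisons, and 0 other columns of samples.

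Whole reads and library sizes were recovered from the log2 CPM values: 100% of values were within 0.01 of a whole read. They were fitted with limma-voom (limma 3.58.1, R 4.3.3) with 1 mean per group over all 16 samples, the authors' scaled library sizes and Benjamini-Hochberg adjustment over 12900 RNAs, with no added filter, after a check on simulated data. All 47 members entered the fit. Lengths came from GENCODE vM21 (GRCm38), where 12321 of the 12900 symbols were found (95.5%) and all 47 members. For each gene 1 transcript was taken, with protein-coding transcripts first and those labeled principal next. Among these the longest coding sequence and then the longest transcript was chosen. Near-identical copies of these transcripts were sought among the annotated GENCODE transcripts, and not in the whole genome, with BLAST 2.17.0 (at least 95% identity over 126 bases).

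Named members were those past the 2-fold rule, the 6 highest and 6 lowest log2(FC) of called members, those called for the change of enrichment or between the lines, and the catalytic subunits with their inducible counterparts. *Psmd2* and the other uncalled members were named to account for the rest of each class. The members and lists were chosen with earlier results of these data known. Replicate numbers did not pair Ps with CB: deviations from the group means of same-numbered samples correlated at 0.18 on average (lowest 0.046) in the HBB line and at -0.16 in the Pkp4 cUTR line. Between the lines same-numbered samples correlated at 0.33 to 0.63 in CB and 0.20 to 0.39 in Ps. Differently numbered samples were at -0.51 to 0.24 in CB and -0.42 to 0.20 in Ps, so the ranges met in Ps. The numbers were taken to pair the samples across lines, but the main fit, which gave the p-values between lines, had no block. Alternatives were the scaling, weights, offset, filters, samples in the fit, replicate blocks and leaving out each sample. Leaving out CB replicate 4 of both lines and the length bins were added after seeing the data.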

Additional observations from a re-analysis of the deposited data

Results flagged for a closer look

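In 80 groups of 4 samples (the 18 named members and the core and regulatory class values), 6 had a sample far from the other 3 by Dixon's test, where chance flags about 1 in 20 groups, or 4 here. In the Ps of the HBB line replicate 4 was low for *Psmd10* (4.90 log2 CPM), *Psma3* (6.57) and *Psmb9* (2.07), and replicate 3 was high for *Psmb7* (7.42). In the CB of that line replicate 3 was low for *Psmc2* (6.53) and replicate 4 was high for *Psmb7* (6.92). The change of enrichment of *Psme4* between the lines (0.27) was singled out by the test of the difference itself, at an unadjusted p of 0.072 in limma. At an adjusted p it was not called.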

How the results depend on the processing

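Of 456 alternative values of counts and class medians, 411 stayed within the limits of the value given, and of 1011 for the named members 930 kept their direction and call. These limits were wide: 29 members higher in Ps of the HBB line, without its Ps replicate 3, still fell within them beside the 36 given. With total-read scaling 15 and 11 members were higher and 4 and 5 lower in Ps of the HBB and Pkp4 cUTR lines, 0 and 1 passed the 2-fold rule, 0 had a larger enrichment in the Pkp4 cUTR line and 0 were higher in its Ps. The core medians became 0.21 and 0.15 and the regulatory medians 0.0018 and -0.0016. *Psmc2* turned to -0.0040 and -0.0196, and in the Pkp4 cUTR line *Psma4* to -0.10, *Psmf1* to -0.0518, *Psmb2* to -0.02 and *Psmg2* to -0.0428. Quantile normalization gave 1 lower member (*Psmd2*) in the Pkp4 cUTR line and 3 higher in CB between the lines. With length bins the core medians were 0.167 and 0.185, the Pkp4 cUTR regulatory median 0.176 and the class differences -0.00672 and 0.00861. With coding length bins the HBB regulatory median was 0.317 and the class differences -0.012 and -0.019. Without CB replicate 4 of both lines 1 member (*Psmd1*) was lower in the HBB line, 0 were higher in CB between the lines and 2 in Ps. Leaving out single samples gave 29 to 36 members higher in Ps of the HBB line and 29 to 37 in the Pkp4 cUTR line. It gave 0 to 1 lower in the HBB line, and 0 to 2 up and 0 to 2 down for the change of enrichment. Between the lines it gave 1 to 5 higher in CB, and 0 to 1 higher and 0 to 1 lower in Ps. The causes were not tested.

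A replicate block within each line, where the numbers did not pair Ps with CB, gave 29 and 32 members higher in Ps in place of 36 and 33. A replicate block shared by the lines gave 36 and 34 and kept the calls of *Psmd6* in CB and *Psmc6* in Ps. The fit on the compared groups alone has no value for the change of enrichment, which needs all 4 groups. Every member had at least 80 reads in every sample (the lowest was *Psme2b*).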
